A study of Sus scrofa with 12 samples.

Results

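The ADAMTS proteases are secreted zinc metalloproteinases named for a disintegrin-like domain and thrombospondin type 1 motifs. They are made as inactive precursors, are cleaved by furin-type convertases, and then act on proteins of the extracellular matrix. ADAMTS1, ADAMTS4, ADAMTS5, ADAMTS9 and ADAMTS15 are known for cutting versican and aggrecan, the large hyaluronan-binding proteoglycans, whereas ADAMTS6, ADAMTS10 and ADAMTS17 belong to the branch linked to fibrillin microfibrils. In the vessel wall, versican-rich matrix is a known substrate, and endothelial cells (ECs) are one source of ADAMTS1. The 9 genes described here, ADAMTS1, ADAMTS4, ADAMTS5, ADAMTS6, ADAMTS9, ADAMTS10, ADAMTS12, ADAMTS15 and ADAMTS17, were chosen by name from the 21153 genes in the count table, each by the Ensembl gene that carries its symbol. The table holds 19 ADAMTS genes in all, and the other 10 are given further on.

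Primary porcine ECs of 3 donors were exposed for 48 h to laminar wall shear stress (WSS) of 2, 30 or 80 dyne/cm2, which the study calls low aneurysmal, physiological and supra-high aneurysmal WSS, and RNA was sequenced from 12 cultures. Each donor gave 1 library at 2, 1 at 80 and 2 at 30 dyne/cm2, and those at 30 form 2 sets of 3, numbered 1 and 2. Here set 1 was taken as the control of 2 dyne/cm2 and set 2 as that of 80 dyne/cm2. This pairing is assumed, since the labels number the sets without saying which experiment each belongs to. Both comparisons are therefore also given against the other set for the members tested. All cultures shared the medium with fetal calf serum and heparin and the gelatin coating. The pigs were 8 months old, the labels call the cells aortic and the study's methods coronary, and the design text places the low and supra-high experiments, each with its own set at 30, in different channel slides with different seeding. A difference between the sets at 30, or between 2 and 80 dyne/cm2, therefore cannot be told apart from the slide if that text holds. The donors are named replicates 1, 2 and 3 in every group.

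The library totals ran from 29606854 to 41058902 counts with a median of 33871914, and the levels below are counts per 1000000 counts (CPM) on totals scaled by the trimmed mean of M values (TMM). CPM is not divided by gene length, so a level can be compared between libraries for 1 gene, and a share of reads between genes reflects length as well as transcripts. In bulk RNA, fewer cells that express a gene and less RNA per cell cannot be told apart. The 8 endothelial markers in the table summed to between 4869 and 5845 CPM at 2 dyne/cm2 and between 6527 and 8579 CPM in the other groups. The 8 smooth muscle markers summed to between 49.8 and 88.6 CPM. Most of that sum came from SMTN, with group means between 55.0 and 73.4 CPM, while desmin (DES) was at 0 in every library. The mean of MYOCD was 4.58 CPM at 2 dyne/cm2, 0.70 CPM in set 1, 1.24 CPM in set 2 and 0.40 CPM at 80 dyne/cm2.

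The summed reads of the 9 genes were lower at 2 dyne/cm2 than at 30 in all 3 donors. ADAMTS4 was the largest single source of them in most libraries. The sum leaves out ADAMTS7, which is not among the 9. Its mean was 246 CPM at 2 dyne/cm2 and 289 CPM in set 2, above that of ADAMTS4 (68.1 and 205 CPM). In set 1 and at 80 dyne/cm2 the mean of ADAMTS7 was below that of ADAMTS4. The summed level of the 9 genes was 190 ± 14.6 CPM at 2 dyne/cm2, 880 ± 175 CPM in set 1, 433 ± 109 CPM in set 2 and 1101 ± 762 CPM at 80 dyne/cm2 (mean ± SD, n = 3). Within donors, the sum at 2 dyne/cm2 was 3.89-, 5.36- and 4.58-fold lower than in set 1. The sum at 80 dyne/cm2 was 1.67-, 3.69- and 1.80-fold that of set 2. The large SD at 80 dyne/cm2 came with donor 2, whose sum was 1965 CPM against 528 and 810 CPM in donors 1 and 3. The range at 80 dyne/cm2 began at 528 CPM and overlapped that of set 2, which reached 533 CPM. Set 2 was 2.41-, 2.03- and 1.77-fold lower than set 1 without overlap, and against set 1 the sum at 80 dyne/cm2 was 0.694, 1.82 and 1.02 times the control.

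Among the 9 genes, ADAMTS4 was the largest contributor of reads in 10 of the 12 libraries, with a share of 15.9% to 69.3% and a median of 48.8%. At 2 dyne/cm2 the mean share of ADAMTS10 (40.3%) exceeded that of ADAMTS4 (34.9%). The exceptions were donor 3 at 2 dyne/cm2 and donor 1 in set 2. In the former, ADAMTS10 held 65.6% of the reads of the 9 genes. In the latter, ADAMTS6 held 38.2% against 36.4% for ADAMTS4. Of the drop in mean summed CPM from set 1 to 2 dyne/cm2, ADAMTS4 accounted for 72.3%, ADAMTS1 for 18.9% and ADAMTS6 for 11.3%. Of the gain from set 2 to 80 dyne/cm2, ADAMTS4 accounted for 63.4%, ADAMTS1 for 27.8% and ADAMTS6 for 6.20%. Within donors 1, 2 and 3 the share of that gain was 65.7%, 64.9% and 56.4% for ADAMTS4 and 23.3%, 30.0% and 21.8% for ADAMTS1. For ADAMTS6 it was 16.0%, 2.28% and 16.0%, so that the low pooled share came with donor 2. The order of the contributors also changed with the control. Against set 2, the drop at 2 dyne/cm2 was 56.4% ADAMTS4, 33.9% ADAMTS6 and 9.32% ADAMTS1. Against set 1, the smaller gain at 80 dyne/cm2 was 35.4% ADAMTS1, 28.0% ADAMTS4 and 20.7% ADAMTS6.

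**Figure D1:**
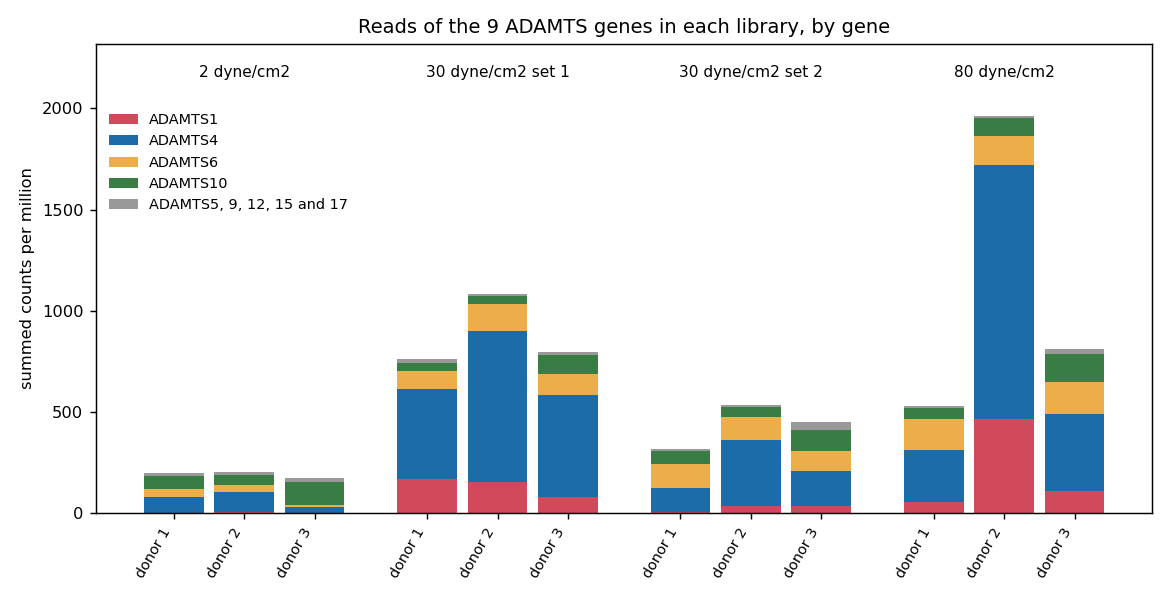
Summed level of the 9 ADAMTS genes in each of the 12 libraries (y axis, CPM, linear from 0), stacked by gene and grouped by shear stress. The 3 libraries at 2 dyne/cm2 reach at most 201 CPM, set 1 lies above set 2 at the same shear stress, and ADAMTS4 is the largest part of each column in set 1 and at 80 dyne/cm2.

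ADAMTS1 (ENSSSCG00000012026, chromosome 13, 190277175-190285957 in Sscrofa11.1), a versican and aggrecan protease that is also known to bind VEGF, had the widest range on a fold scale of the 6 members tested in both comparisons. Its level was 1.98, 3.10 and 2.08 CPM at 2 dyne/cm2 in donors 1, 2 and 3 and 166, 153 and 78.1 CPM in set 1. In set 2 it was 7.38, 34.9 and 32.7 CPM, and at 80 dyne/cm2 it was 56.8, 465 and 111 CPM. The libraries at 2 dyne/cm2 thus lay below both sets at 30 without overlap, those at 80 lay above set 2 but overlapped set 1, and set 2 lay below set 1. The fitted log2 fold change at 2 dyne/cm2 against set 1 was -5.75 (SE 0.26, edgeR quasi-likelihood test with the donor as a block, Benjamini-Hochberg adjusted p = 0.0029), a 53.7-fold lower level. Against set 2, the value at 80 dyne/cm2 was 2.81 (SE 0.34, adjusted p = 0.00618), a 7.02-fold higher level. Within donors that rise was 7.70-, 13.3- and 3.40-fold.

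ADAMTS4 (ENSSSCG00000006359, chromosome 4, 89260354-89269238), known as aggrecanase-1, moved in the same direction as ADAMTS1 in both comparisons and by less on the log2 scale. It was at 77.2, 99.5 and 27.6 CPM at 2 dyne/cm2 and at 445, 749 and 506 CPM in set 1. It was at 115, 325 and 175 CPM in set 2 and at 254, 1254 and 378 CPM at 80 dyne/cm2. The level at 2 dyne/cm2 was below every library at 30, while the range at 80 dyne/cm2 overlapped those of both sets, and within each donor the library at 80 was above that of set 2. The log2 fold change was -3.18 at 2 dyne/cm2 (SE 0.36, adjusted p = 0.00781) and 1.40 at 80 dyne/cm2 (SE 0.17, adjusted p = 0.00646).

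ADAMTS5 (ENSSSCG00000012027, chromosome 13, 190353019-190413110), aggrecanase-2, is the next ADAMTS gene along the chromosome from ADAMTS1 and did not share its pattern at 2 dyne/cm2. Its level was 6.40, 3.03 and 7.23 CPM at 2 dyne/cm2 and 15.1, 1.95 and 6.54 CPM in set 1, and it was 1.62, 1.78 and 4.27 CPM in set 2 and 1.87, 6.19 and 13.8 CPM at 80 dyne/cm2. The ranges of all 4 groups overlapped. At 2 dyne/cm2 against set 1 the log2 fold change was -0.19 (SE 0.39, adjusted p = 0.735), and at 80 dyne/cm2 against set 2 it was 1.32 (SE 0.29, adjusted p = 0.0373). The rise at 80 dyne/cm2 was 1.16-fold in donor 1, 3.48-fold in donor 2 and 3.24-fold in donor 3, and the adjusted p was 0.143 without donor 2 and 0.274 without donor 3.

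ADAMTS6 (ENSSSCG00000016943, chromosome 16, 43702519-44010820), of the branch linked to fibrillin microfibrils, was at 39.3, 37.5 and 11.5 CPM at 2 dyne/cm2 and at 88.2, 130 and 103 CPM in set 1. It was at 121, 113 and 101 CPM in set 2 and at 155, 146 and 158 CPM at 80 dyne/cm2. Among the members tested in both comparisons, it was the one whose order followed the shear stress without overlap. Its libraries at 2 lay below and those at 80 above all 6 libraries at 30 dyne/cm2. Here and for the other members, the share of all genes with such a separation was not counted, so it is not shown to be particular to them. The log2 fold change at 2 dyne/cm2 was -2.00 (SE 0.40, adjusted p = 0.0253), and the adjusted p was 0.0699 without donor 2. The value at 80 dyne/cm2 was 0.46 (SE 0.09, adjusted p = 0.0281), which passed the adjusted p and stayed under the 2-fold change that a call required.

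ADAMTS10 (ENSSSCG00000026994, chromosome 2, 70734234-70751205), a fibrillin-associated member, differed more between donors than between shear stresses. It was at 62.9, 46.9 and 114 CPM at 2 dyne/cm2 and at 40.7, 39.5 and 95.8 CPM in set 1. It was at 64.6, 50.8 and 104 CPM in set 2 and at 56.0, 88.2 and 138 CPM at 80 dyne/cm2. Donor 3 was the highest in all 4 groups, and neither comparison passed the test, with log2 fold changes of 0.39 (SE 0.11, adjusted p = 0.0561) at 2 and 0.33 (SE 0.17, adjusted p = 0.264) at 80 dyne/cm2.

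ADAMTS17 (ENSSSCG00000038452, chromosome 1, 138619701-139015681), of the same branch, was low and nearly level. It was at 7.60, 7.26 and 6.27 CPM at 2 dyne/cm2, at 4.65, 5.40 and 5.82 CPM in set 1, at 5.90, 4.13 and 6.06 CPM in set 2 and at 4.24, 3.75 and 5.13 CPM at 80 dyne/cm2. The libraries at 2 dyne/cm2 lay above all 6 libraries at 30, by a small margin. The log2 fold changes were 0.43 (SE 0.17, adjusted p = 0.121) at 2 and -0.29 (SE 0.15, adjusted p = 0.261) at 80 dyne/cm2, and neither passed the test.

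**Figure D2:**
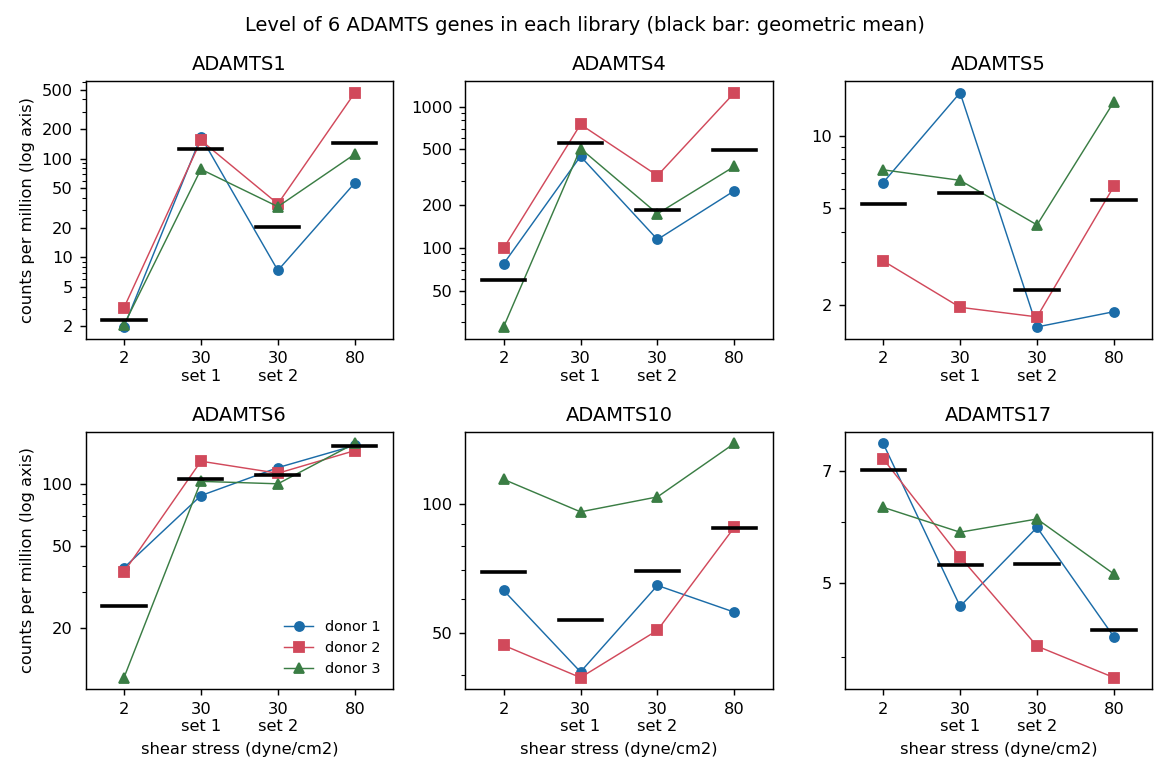
Level of the 6 ADAMTS genes that were tested in both comparisons (y axis, CPM on a log axis whose range differs by panel) at 2 dyne/cm2, in the 2 sets at 30 and at 80 dyne/cm2. Each marker is 1 library, lines join the libraries of a donor, black bars are geometric means, and ADAMTS1 spans from 1.98 to 465 CPM while ADAMTS17 stays between 3.75 and 7.60 CPM.

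The other 3 members stayed under the filter of at least 1 CPM in at least 3 of 6 libraries and were not tested in these comparisons. ADAMTS9 (ENSSSCG00000011496, chromosome 13, 46033753-46209238), a versican protease, had no counts in 10 of the 12 libraries, 1 count in donor 2 at 2 dyne/cm2 and 2 counts in donor 3 at 80 dyne/cm2, which is within the 3 counts that a count of 0 allows. ADAMTS12 (ENSSSCG00000016816, chromosome 16, 19547003-19920780), known for cleaving cartilage oligomeric matrix protein, was read almost entirely in donor 2. Its counts in donors 1, 2 and 3 were 1, 119 and 15 at 2 dyne/cm2, 0, 71 and 2 in set 1, 0, 78 and 10 in set 2 and 0, 56 and 2 at 80 dyne/cm2. ADAMTS15 (ENSSSCG00000015250, chromosome 9, 57127527-57152550), another versican and aggrecan protease, was read mostly in donor 3, with counts of 10, 10 and 142 at 2 dyne/cm2, 15, 7 and 53 in set 1, 31, 6 and 1081 in set 2 and 3, 4 and 185 at 80 dyne/cm2. ADAMTS15 had fewer counts at 80 dyne/cm2 than in set 2 in all 3 donors, and it was called there once genes of lower counts were also tested (no filter, or edgeR's filterByExpr). For both genes the donor with the reads stood apart from the other two in every group, so a mean over donors describes 1 donor.

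**Figure D3:**
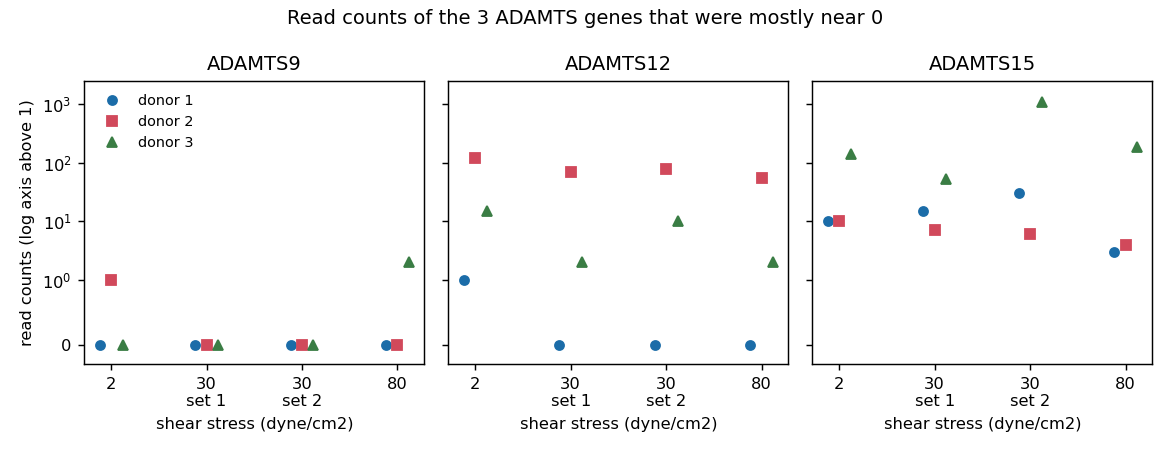
Read counts of ADAMTS9, ADAMTS12 and ADAMTS15 in each library (y axis, counts, linear up to 1 and logarithmic above it) by shear stress, with 1 marker per donor. ADAMTS9 does not exceed 2 counts, ADAMTS12 lies between 56 and 119 counts in donor 2 only, and ADAMTS15 lies between 53 and 1081 counts in donor 3.

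Of the 6 members tested, 3 were called lower at 2 dyne/cm2 than in set 1 (ADAMTS1, ADAMTS4 and ADAMTS6, at least 2-fold with an adjusted p under 0.05) and 0 were called higher. Among the 11226 genes tested, 4.54% were called lower and 5.06% higher. At 80 dyne/cm2 against set 2, 3 members were called higher (ADAMTS1, ADAMTS4 and ADAMTS5) and 0 lower, where 1.14% of the 11187 genes tested were called higher and 1.05% lower. The median log2 fold change of the 6 members was -1.09 at 2 and 0.89 at 80 dyne/cm2, against 0.00 and -0.01 over all genes tested. Without the donor as a block, 2 members (ADAMTS1 and ADAMTS4) were called at 2 dyne/cm2, where 5.66% of all genes were, and ADAMTS6 had an adjusted p of 0.0529. The edgeR fit without the block called 0 members and 0% of all genes at 80 dyne/cm2 (929 genes had an unadjusted p under 0.05), and the adjusted p of ADAMTS1, ADAMTS4 and ADAMTS5 was 0.522, 0.615 and 0.656. The calls at 80 dyne/cm2 thus rest on the comparison within donors.

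The response to 2 dyne/cm2 was then set against the response to 80 dyne/cm2 in 1 fit of all 12 libraries, in which 8 members were tested. The log2 difference, that is the fold change at 2 minus the fold change at 80 dyne/cm2, was -8.73 for ADAMTS1 (SE 0.98, adjusted p = 0.000258), -4.53 for ADAMTS4 (SE 0.57, adjusted p = 0.000444) and -2.38 for ADAMTS6 (SE 0.45, adjusted p = 0.0033). For ADAMTS17 it was 0.74 (SE 0.24, adjusted p = 0.0384) and for ADAMTS12 2.07 (SE 0.63, adjusted p = 0.0282), the latter on counts from mainly donor 2. ADAMTS5 (-1.97, SE 0.97, adjusted p = 0.141), ADAMTS15 (2.90, SE 1.03, adjusted p = 0.0516) and ADAMTS10 (0.05, SE 0.26, adjusted p = 0.884) did not pass. These 5 of 8 members stand beside 37.1% of the 11568 genes tested.

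Several of these values depend on which set at 30 dyne/cm2 serves as the control, and the sets were therefore compared with each other. From set 1 to set 2 the log2 fold change was -2.52 for ADAMTS1 (SE 0.59, adjusted p = 0.139), -1.55 for ADAMTS4 (SE 0.14, adjusted p = 0.0563) and -1.35 for ADAMTS5 (SE 0.59, adjusted p = 0.283). By the size of the fold change these genes ranked 1, 15 and 35 of the 11163 genes tested, while ADAMTS6 was at 0.08 (SE 0.13), ADAMTS17 at 0.02 (SE 0.18) and ADAMTS10 at 0.39 (SE 0.11). None of the 6 was called by edgeR with the filter used here, where 0.00896% of all genes were called and 2146 genes had an unadjusted p under 0.05. ADAMTS4 was called by edgeR without a filter (adjusted p = 0.00602), with filterByExpr (adjusted p = 0.0477) or without donor 2 (adjusted p = 0.0113), and by DESeq2. Donor 1 differed most between the sets, with ADAMTS1 22.5-fold and ADAMTS5 9.33-fold lower in set 2, against 2.39-fold and 1.53-fold in donor 3.

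Each shear stress was therefore also compared with the other set, which shares its libraries with the comparisons above. At 2 dyne/cm2 against set 2, ADAMTS1 (-3.15, SE 0.42, adjusted p = 0.0115), ADAMTS4 (-1.64, SE 0.41, adjusted p = 0.0453) and ADAMTS6 (-2.08, SE 0.34, adjusted p = 0.018) were again called lower. ADAMTS5 was called higher (1.17, SE 0.29, adjusted p = 0.0467), and 7.71% of all genes were called in either direction. At 80 dyne/cm2 against set 1, 0 of the 6 members were called, where 0.216% of all genes were. There ADAMTS1 was at 0.22 (SE 0.55, adjusted p = 0.902), ADAMTS4 at -0.17 (SE 0.28, adjusted p = 0.833) and ADAMTS5 at 0.06 (SE 0.88, adjusted p = 0.986). The lower levels of ADAMTS1, ADAMTS4 and ADAMTS6 at 2 dyne/cm2 were thus present against either set. The calls of ADAMTS1, ADAMTS4 and ADAMTS5 at 80 dyne/cm2 were made against set 2 alone. Against set 1 the donors differed. In donors 1, 2 and 3, the level at 80 dyne/cm2 was 0.341, 3.04 and 1.42 times that of set 1 for ADAMTS1. The ratios were 0.571, 1.67 and 0.747 for ADAMTS4 and 0.124, 3.18 and 2.12 for ADAMTS5. For ADAMTS6, the log2 fold change at 80 dyne/cm2 was 0.53 (SE 0.14, adjusted p = 0.196) against set 1, close to that against set 2.

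**Figure D4:**
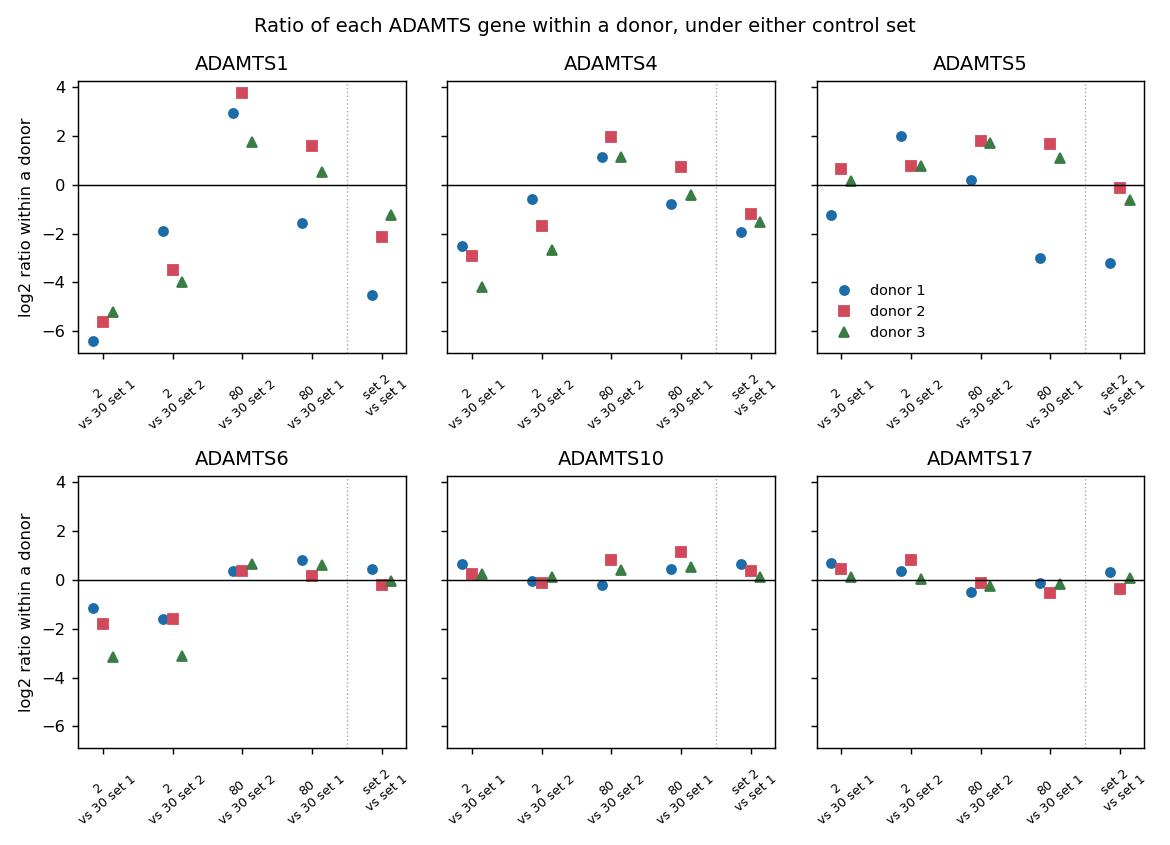
Ratio of 6 ADAMTS genes within each donor (y axis, log2 ratio of CPM) for 2 and 80 dyne/cm2 against either set at 30 and, right of the dotted line, for set 2 against set 1. ADAMTS1, ADAMTS4 and ADAMTS6 lie below 0 in all 3 donors at 2 dyne/cm2 under either control, while at 80 dyne/cm2 ADAMTS1 and ADAMTS4 lie above 0 in all donors only against set 2.

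Across the 12 libraries, with each donor's mean removed, the log2 CPM of ADAMTS1 and ADAMTS4 had a Pearson r of 0.96, and ADAMTS6 had an r of 0.81 with ADAMTS1 and 0.85 with ADAMTS4. The r of ADAMTS1 was -0.79 with ADAMTS17, 0.29 with ADAMTS5 and 0.03 with ADAMTS10. These are descriptions, since the points share donors and shear stresses. Of 9912 genes with a symbol and a mean of at least 1 CPM, those most like ADAMTS1 by this measure were NR4A1, an immediate early nuclear receptor (0.98), MAP2K1, the kinase that activates ERK (0.98), CTTNBP2NL (0.98), TRIM16 (0.97) and ANKRD50 (0.97). From the highest r down, ADAMTS4 ranked 20, ADAMTS6 1255 and ADAMTS17 8671. Many genes outside the family thus had a higher r than ADAMTS6 or a lower r than ADAMTS17.

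Among the 10 other ADAMTS genes, ADAMTS7, which cleaves cartilage oligomeric matrix protein, was the only one with high counts. It was at 246 ± 14.6 CPM at 2 dyne/cm2, 330 ± 74.0 CPM in set 1, 289 ± 39.1 CPM in set 2 and 379 ± 107 CPM at 80 dyne/cm2 (n = 3). Its log2 fold changes were -0.39 (SE 0.16, adjusted p = 0.139) at 2 and 0.36 (SE 0.15, adjusted p = 0.182) at 80 dyne/cm2. ADAMTS7 is not part of the summed level of the 9 genes, and its mean at 2 dyne/cm2 was above that sum (190 CPM). The fold changes of the sum therefore do not describe all ADAMTS reads. ADAMTS14, a procollagen N-proteinase, was the other one tested. It was not called in either comparison, and at 80 dyne/cm2 its log2 fold change of 0.99 (SE 0.24, adjusted p = 0.0461) passed the adjusted p and lay just under the 2-fold change. ADAMTS8, the neighbour of ADAMTS15 on chromosome 9, did not exceed 1 count.

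The ADAMTS-like proteins resemble the proteases without the catalytic domain. Of 6 tested, 2 were called lower at 2 dyne/cm2 and 2 higher at 80 dyne/cm2, and these were THSD4 and ADAMTSL1 both times. THSD4, which is known to bind fibrillin microfibrils, had log2 fold changes of -3.32 (SE 0.53, adjusted p = 0.0163) and 2.36 (SE 0.23, adjusted p = 0.00369), and against set 1 it was still called at 80 dyne/cm2 (1.86, SE 0.23, adjusted p = 0.0492). ADAMTSL1 had log2 fold changes of -1.94 (SE 0.41, adjusted p = 0.0287) and 1.06 (SE 0.24, adjusted p = 0.0409), and at 80 dyne/cm2 against set 1 it was at 0.57 (SE 0.19, adjusted p = 0.291). Without the donor block, the adjusted p of THSD4 was 0.0532 and that of ADAMTSL1 0.0616 at 2 dyne/cm2.

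The substrates did not follow 1 direction. Of 3 hyalectans and link proteins tested, 0 were called at 2 dyne/cm2, and at 80 dyne/cm2 the link protein HAPLN4 was called lower (-1.02, SE 0.09, adjusted p = 0.00357). At 2 dyne/cm2 HAPLN4 was higher under the 2-fold change (0.65, SE 0.11, adjusted p = 0.02). Against set 1, 1 of the 3 was called lower at 80 dyne/cm2. VCAN, which encodes versican, was low, with group means between 5.35 and 6.40 CPM. Its log2 fold changes were -0.21 (SE 0.15, adjusted p = 0.348) at 2 and 0.23 (SE 0.17, adjusted p = 0.428) at 80 dyne/cm2. Of 11 other known or reported substrates tested, 3 were called higher at 2 dyne/cm2, namely THBS1 (1.54, SE 0.23), FMOD (1.39, SE 0.25) and TFPI2 (1.06, SE 0.10), and 2 lower, namely LTBP1 (-1.71, SE 0.17) and NID2 (-1.27, SE 0.14). Without the donor block, FMOD (adjusted p = 0.111) and TFPI2 (adjusted p = 0.18) were not called. Of the same 11, 1 was called at 80 dyne/cm2, FN1, which encodes fibronectin and was lower (-2.01, SE 0.28, adjusted p = 0.00806). Against set 1, 0 of the 11 were called at 80 dyne/cm2, FN1 included. The level of FN1 was nevertheless below set 1 in each donor. It was 9167, 11906 and 11850 CPM at 80 dyne/cm2 in donors 1, 2 and 3 and 34037, 36117 and 25148 CPM in set 1. At 2 dyne/cm2 against set 2, 3 of the 11 were called higher and 2 lower.

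Among 9 tested genes for metalloproteinase inhibitors, convertases and a glycosyltransferase, TIMP1 (-1.80, SE 0.29, adjusted p = 0.0163) and TIMP3 (-1.52, SE 0.34, adjusted p = 0.033) were called lower at 2 dyne/cm2. TIMP3 encodes the tissue inhibitor known to block ADAMTS4 and ADAMTS5. RECK, a membrane-anchored metalloproteinase inhibitor, was called higher (1.85, SE 0.33, adjusted p = 0.0203). FURIN, a convertase that activates ADAMTS precursors, was at -0.81 (SE 0.13, adjusted p = 0.0158), under the 2-fold change. PCSK5, another convertase (-0.998, SE 0.14, adjusted p = 0.0128), and B3GLCT, a glycosyltransferase of thrombospondin repeats (-0.36, SE 0.08, adjusted p = 0.0284), also lay under it. None of the 9 was called at 80 dyne/cm2, where 5 passed the adjusted p under a 2-fold change, namely TIMP1 (0.93, SE 0.11, adjusted p = 0.00487), PCSK5 (0.73, SE 0.11), PCSK6 (0.71, SE 0.14), RECK (-0.55, SE 0.12) and FURIN (0.47, SE 0.11). Without the donor block, TIMP3 had an adjusted p of 0.0576 at 2 dyne/cm2. At 2 dyne/cm2 against set 2, 1 of the 9 was called higher and 1 lower, so TIMP1 and TIMP3 were not both called there. At 80 dyne/cm2 against set 1, 0 of the 9 were called.

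**Figure D5:**
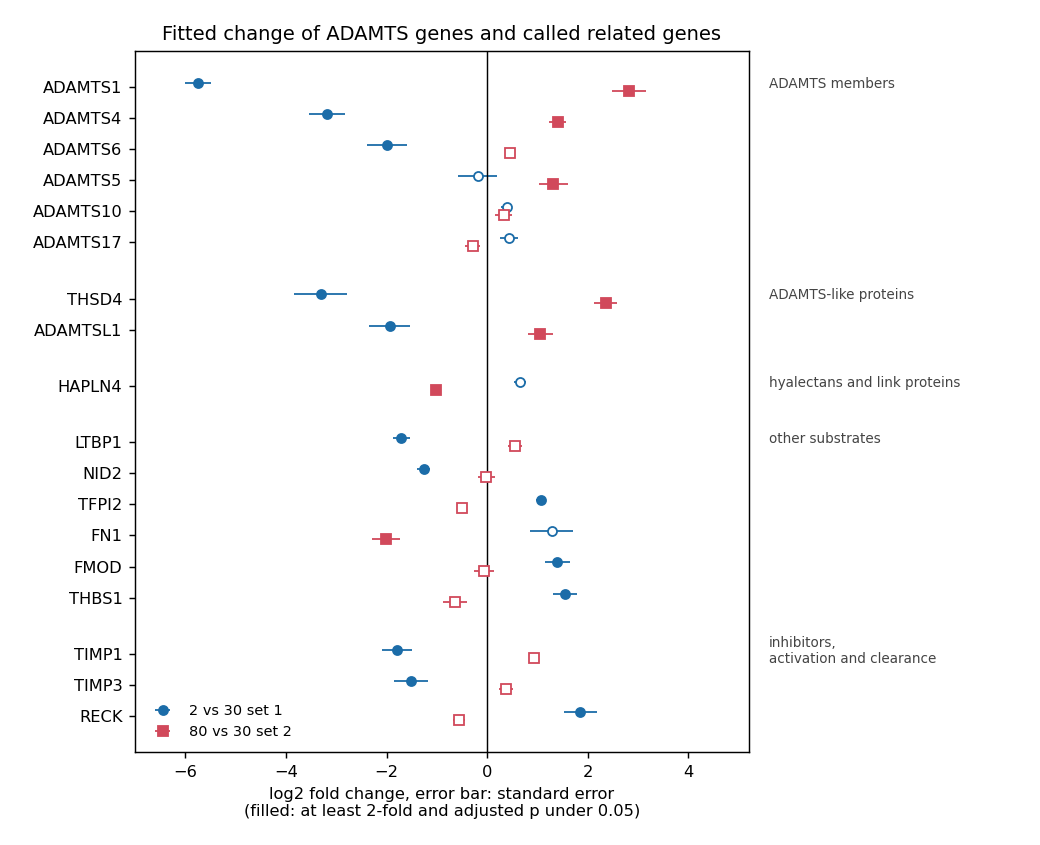
Fitted log2 fold changes (x axis, error bars are standard errors) of the 6 tested ADAMTS genes and of related genes called in at least 1 comparison, for 2 dyne/cm2 against set 1 (circles) and 80 dyne/cm2 against set 2 (squares). Filled symbols were called, and ADAMTS1, ADAMTS4, THSD4 and ADAMTSL1 are filled on the left for 2 and on the right for 80 dyne/cm2.

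Other changes in the cultures moved with these groups. The 7 fibroblast and mesenchymal markers in the table summed to between 365 and 1309 CPM at 2 dyne/cm2, between 162 and 306 CPM in set 1, between 127 and 724 CPM in set 2 and between 46.6 and 177 CPM at 80 dyne/cm2, with none of the 7 at 0 in a whole group. Of them 3 were called higher at 2 dyne/cm2, and COL3A1 was called lower at 80 dyne/cm2 (-1.90, adjusted p = 0.0203). Of the 8 endothelial markers, 1 was called at 2 dyne/cm2, the receptor gene TEK, which was lower (-2.95, adjusted p = 0.00479), and 7 were not called. Of these 7, ROBO4 was higher (0.50, adjusted p = 0.0251) and the others had log2 fold changes below 0. KDR was at -1.27 (adjusted p = 0.0609), PECAM1 at -0.71 (adjusted p = 0.0346), ESAM at -0.56 (adjusted p = 0.0179) and CDH5 at -0.11 (adjusted p = 0.521). The median over the 8 was -0.39. None of the 8 was called at 80 dyne/cm2. The 8 leukocyte markers summed to between 529 and 750 CPM over all libraries, most of it from LAPTM5. The leukocyte marker PTPRC was at 0 counts in all groups but that at 80 dyne/cm2, where it reached 2 counts. Others had reads, and at 2 dyne/cm2 CD68 was at 6.64 CPM, CD79A at 4.07 CPM and CD14 at 2.67 CPM. Of 4 leukocyte markers tested, 1 was called at 2 dyne/cm2, CD68, which was lower (-1.17, adjusted p = 0.00961), and 0 were called at 80 dyne/cm2. The part of these marker changes in the ADAMTS values was not tested. In the RefSeq annotation ADAMTS1 overlaps the predicted gene LOC110256366, ADAMTS6 overlaps CENPK, and ADAMTS10 lies within a predicted noncoding RNA, LOC106507295. Whether the counting used strand is not given in the sources used here, so reads shared with these partners cannot be told apart.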

How the data were processed

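RNA from 12 cultures was sequenced as 100 nt single reads. Per the labels, the authors aligned reads to Sscrofa11.1 with STAR 2.4, discarding multimapping reads, and the submitters' processing notes also name CASAVA 1.8.2 and featureCounts 1.4.6. The deposited values are raw counts per Ensembl gene. Symbols and RefSeq coordinates came from the reference tables (14572 of 21153 genes had a symbol). Exon lengths and sequences were not used here.

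Counts were tested with edgeR 4.0.16 (R 4.3.3, limma 3.58.1) by the quasi-likelihood test, with TMM scaling, genes of at least 1 CPM in at least 3 libraries and Benjamini-Hochberg adjustment over all genes tested. A call required a fold change of at least 2 and an adjusted p under 0.05, and the test of the difference of responses required the adjusted p alone. The donor was a block, since the study's methods compare WSS conditions within a donor and the labels tie each replicate number to 1 donor. As a check, same-number libraries deviated together from their group means (r between 0.68 and 0.88, 18 pairs). The others had an r of -0.55 to -0.19 (36 pairs). That sign follows from centring each group of 3 on its mean, so it is not a separate check. The p-values measure the spread between cultures of 3 donors. On simulated counts, the fit found 194 of 194 changed genes at 2 and 193 of 193 at 80 dyne/cm2, with 6 false calls each, and 189 of 200 for the difference of responses, with 8. Each changed gene was given a log2 change of 2 or 3 in either direction, the same in every donor. The simulation therefore does not show how often smaller changes, or changes that differ between donors, are found. Alternatives were relative log expression scaling, DESeq2 1.42.0, other filters and thresholds, no block, other control libraries and leaving out each donor.

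Named genes were the 9 members, the genes called in each related list (at most 5 a list), the 5 genes most like ADAMTS1 and neighbours on the chromosome. ADAMTS7, ADAMTS8, ADAMTS14, VCAN, FURIN, PCSK5, PCSK6 and B3GLCT and the cell type markers were named in addition, after their values were seen. The members and lists were chosen with earlier results of these data known. The symbols SDC4, TIMP2, POFUT2, LRP1, VWF, EGFL7 and THY1 matched no gene. The sample labels name no batch other than the donor. The different slides and seeding that the design text describes for the low and supra-high experiments are given above.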

Additional observations from a re-analysis of the deposited data

Results flagged for a closer look

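The responses to 2 and 80 dyne/cm2 differed by a test of the difference itself for 5 of the 8 members tested, beside 37.1% of the 11568 genes tested. The log2 difference (2 minus 80 dyne/cm2) was -8.73 for ADAMTS1, -4.53 for ADAMTS4, -2.38 for ADAMTS6, 2.07 for ADAMTS12 and 0.74 for ADAMTS17. Each response was taken against its own set at 30 dyne/cm2. With the sets exchanged, ADAMTS1 (-3.45, adjusted p = 0.0286) and ADAMTS6 (-2.50, adjusted p = 0.00448) still passed the test, ADAMTS1 with a much smaller difference. ADAMTS4 (-1.41, adjusted p = 0.101), ADAMTS12 (1.10, adjusted p = 0.251) and ADAMTS17 (0.71, adjusted p = 0.0647) did not. Leaving out any 1 donor kept the calls of ADAMTS1, ADAMTS4 and ADAMTS6 and ended that of ADAMTS17, whose adjusted p then lay between 0.0662 and 0.308. The call of ADAMTS12 ended without donor 1 (adjusted p = 0.0782) or donor 3 (adjusted p = 0.161), and without donor 2 the gene was not tested.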

How the results depend on the processing

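At 2 dyne/cm2 against set 1, between 2 and 4 members were called under every alternative, ADAMTS1 and ADAMTS4 always among them. At 80 dyne/cm2, where 3 were called, 0 members were called without the replicate block, 1 with all 12 libraries in 1 fit, and 0 with set 1 or with both sets as control. ADAMTS15 joined the calls at 80 dyne/cm2 without a filter, with filterByExpr and without donor 1 or donor 2, and ADAMTS12 those at 2 dyne/cm2 with all 12 libraries in 1 fit. For the difference of responses, 3 members passed without the replicate block, 2 with the sets at 30 exchanged, and 3 to 4 without 1 donor. Between the sets, 1 member passed with DESeq2, without a filter or with filterByExpr, and 0 to 2 without 1 donor. Over all genes, the calls at 2 dyne/cm2 numbered 1078, but 635 without the block, 676 in a test against a 1.5-fold change and 2895 by the adjusted p alone. At 80 dyne/cm2 they numbered 246, but 0 without the block, 136 with all 12 libraries, 24 with set 1, 78 with both sets, 940 by the adjusted p alone, 83 in a test against a 1.5-fold change, and 144 to 343 without 1 donor. For the difference they numbered 4294, but 1746 without the block, 2568 with the sets exchanged and 1995 to 3375 without 1 donor. Between the sets they numbered 1, but 66 with DESeq2, 46 without a filter, 6 with filterByExpr and 0 to 122 without 1 donor.

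The direction turned in these cases, all short of a call except the first. ADAMTS5 at 2 dyne/cm2 was at 1.17 with set 2 and 0.25 with both sets as control, and between -0.55 and 0.39 without 1 donor. ADAMTS10 was at -1.57e-05 with set 2. ADAMTS4 at 80 dyne/cm2 was at -0.17 with set 1. With the sets exchanged, the difference of responses was 1.22 for ADAMTS5, -0.72 for ADAMTS10 and -2.37 for ADAMTS15, and without 1 donor it lay between -0.33 and 0.36 for ADAMTS10. Between the sets and without 1 donor, ADAMTS6 lay between -0.11 and 0.21, and ADAMTS17 between -0.15 and 0.21 (-0.0056 without donor 3). The mean log2 ratio of the summed CPM at 2 dyne/cm2, -2.19, became -1.37 without ADAMTS4 in the sum and -1.15 with set 2, and that at 80 dyne/cm2, 1.16, became 0.12 with set 1; these alternatives were chosen after seeing the data. The causes were not tested. A sum per kilobase was not run, since exon lengths were not used here. With 3 donors, a change that was not called is not shown to be absent, the counts of ADAMTS9 allow no comparison, and the values of ADAMTS12 and ADAMTS15 rest mainly on 1 donor each.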
